A study of Mus musculus with 6 samples.

Results

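Aminoacyl-tRNA synthetases and eukaryotic translation initiation factors were examined for acetylation of histone H3 at lysine 9 (H3K9ac), a mark of active promoters, in isolated mouse lung endothelial cells. The genes were taken by name from the peak table of the study: symbols of the form Xars, Xars1 or Xars2, Farsa, Farsb and Eprs for the synthetases, and symbols that begin with Eif1 to Eif6 for the factors, without Eif4ebp1. Of 17901 peaks assigned to 11191 genes, 99 peaks of 75 genes met this rule. The peak numbers run to 23867, and 75.0% of them are listed. A gene or site without a listed peak may therefore still carry the mark. The synthetases held 44 peaks of 31 genes and the Eif genes 55 peaks of 44 genes.

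H3K9ac was profiled by CUT&RUN, in which a nuclease tethered to an antibody cuts out the DNA under the mark. Of the 6 libraries, 3 are labelled WT (Cre-negative) and 3 CSE-KO (Cre-positive), and CSE is cystathionine gamma-lyase, the Cth product that makes cysteine from cystathionine. The labels give neither the Cre driver, the allele, the strain nor the age, nor whether each library is a different animal. The spread behind every p-value is thus that of these libraries and may be technical. H3K9ac at Cth was not analysed here, and the targeted gene therefore does not check the labels.

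The total count over the peaks was 313610 to 676056 in the WT libraries and 679938 to 1173016 in the CSE-KO libraries, so that the deepest WT library was shallower than any CSE-KO library. The synthetase and Eif peaks together took 0.797% to 0.822% of the counts of each WT library and 0.801% to 0.818% of each CSE-KO library. Of 12 endothelial marker genes, 11 had a peak, with a summed level of 2206 to 2325 CPM (counts scaled to the library total) in WT and 2054 to 2309 in CSE-KO. None of 8 leukocyte markers had a listed peak, against 4 of 8 epithelial markers (148 to 173 CPM in WT, 133 to 168 in CSE-KO) and 1 of 8 markers of fibroblasts, smooth muscle and pericytes (33.0 to 46.9 and 22.4 to 51.8 CPM). The epithelial markers with a peak were Epcam, Cdh1, Krt8 and Krt18, and those with no listed peak were Nkx2-1, Sftpb, Sftpc and Hopx. Whether these markers or depth had a part in the results that follow was not tested. In bulk libraries, fewer cells with the mark and less of the mark per cell cannot be told apart, and the scaling between libraries sets the median difference over all peaks near 0. Some deposited column names carry a numeric prefix that differs between WT and CSE-KO, and if it marks a batch, batch and genotype cannot be told apart.

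Aminoacyl-tRNA synthetases charge each tRNA with its amino acid, and cytosolic and mitochondrial translation use separate enzymes for most amino acids, with the mitochondrial enzyme usually bearing the suffix 2. Initiation factors place the initiator tRNA and the mRNA on the small ribosomal subunit: eIF2 carries the initiator tRNA in its GTP-bound form, eIF2B recharges eIF2 with GTP, eIF3 is the scaffold on the small subunit, and the eIF4 group binds the mRNA cap. When amino acids run short, the kinase GCN2 senses uncharged tRNA and phosphorylates eIF2, which inhibits eIF2B, and the transcription factor ATF4 then acts at amino acid response elements, which occur in several synthetase promoters.

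Because that element links the synthetases to amino acid supply, its core was searched in RefSeq promoter windows of 300 bases (250 before and 50 after the start, GRCm38.p6). Of the 75 genes, 57 had a window, 23 of them synthetases and 34 Eif genes. Cars, the cytosolic cysteine enzyme, had no window and was not searched for any motif. The core TGATGNAAN, with N any base and either strand allowed, was present at 5 of 23 synthetase genes (21.7%), at 1 of 34 Eif genes (2.94%) and at 4.50% of the 27025 genes with a window. Matches at 5 of these genes are shown 5′ to 3′ on the strand of the core, with the core in capitals and 10 bases on each side. Positions are those of the leftmost core base on the gene strand, counted from 1 at the first transcribed base and from -1 at the base before it.
Gars at -31: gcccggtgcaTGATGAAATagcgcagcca
Iars at 7: cgtctggaggTGATGCAATactgacagtg
Tars at -16: gctaaccagcTGATGCAACgggactcctg
Yars at 4: cgagctcagcTGATGCAACccgacgggac
Eif2s3x at -97: ggcatagaccTGATGAAAAtgatggcgaa
The 5 synthetase genes with a match are those for alanine, glycine, isoleucine, threonine and tyrosine, and Eif2s3x encodes the gamma subunit of eIF2. A match is a run of letters and not evidence of a bound factor.

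The other motifs searched, also on both strands, were shared differently. The E-box CACGTG was found at 17.4% of synthetase genes, 26.5% of Eif genes and 8.09% of all genes. The ETS core CCGGAAGT was found at 8.70%, 17.6% and 4.31%, and the NFY box CCAAT at 47.8%, 35.3% and 41.1%. The TATA box TATAAA was found at 8.70%, 8.82% and 15.7%. The palindromic NRF1 site was present at Eif3k alone among these genes (2.94% of Eif genes, 1.07% of all genes), and the CRE TGACGTCA at none of them (2.03% of all genes). The motifs do not contain one another, and CACGTG, TGACGTCA and the NRF1 site read the same on both strands. The windows were richer in CG dinucleotides than most, with a median of 18 in synthetase windows, 22.5 in Eif windows and 7 over all genes.

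**Figure D1:**
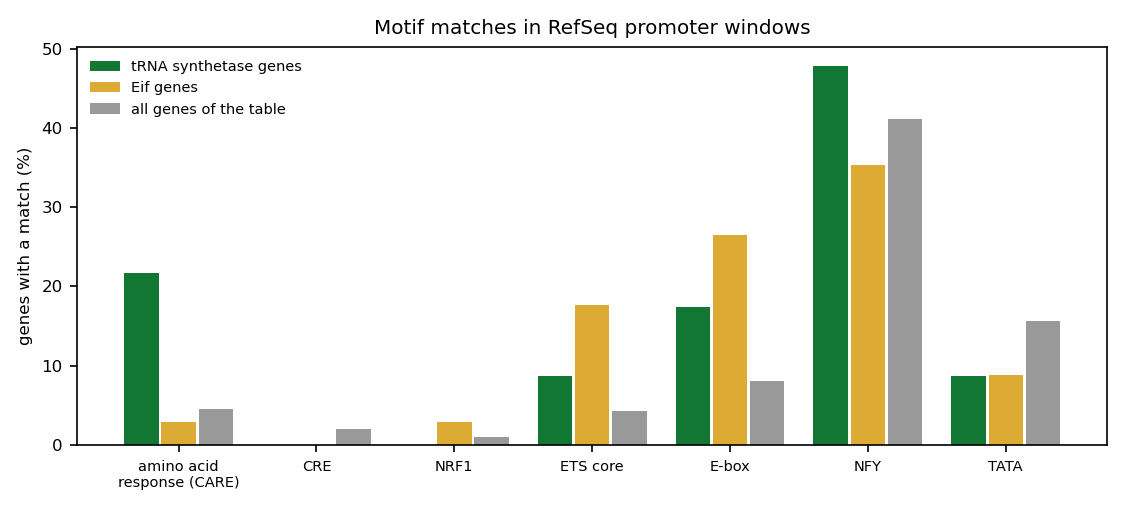
Share of genes (%) whose 300-base RefSeq promoter window holds each motif on either strand, for 23 synthetase genes, 34 Eif genes and all 27025 genes of the table. The amino acid response core stands at 21.7% of synthetase genes against 4.50% of all genes, and the E-box at 26.5% of Eif genes against 8.09%.

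H3K9ac did not pass the test at any synthetase or Eif peak when CSE-KO was compared with WT. The filter on low counts kept 94 of the 99 peaks (41 synthetase, 53 Eif). The quasi-likelihood test of edgeR called 0 of the 94 at an adjusted p under 0.05, the smallest adjusted p being 0.45, against 14 of 16134 peaks over the whole table (0.0868%; 0.0248% higher and 0.0620% lower in CSE-KO). DESeq2 and limma-voom also called 0. At an unadjusted p under 0.05, edgeR took 7 of the 94 peaks (3 higher, 4 lower). DESeq2 took 5 of the 94, against 3.51% of all tested peaks, and limma-voom 4, against 7.82%. The edgeR share of 7.45% stood beside 7.08% of all tested peaks (3.01% higher, 4.07% lower). Of the 7, 6 belonged to Eif genes and 1 to a synthetase. CSE-KO and WT libraries did not overlap at 9 of the 94 peaks (9.57%; 2 higher, 7 lower), against 13.0% of all tested peaks (6.09% higher, 6.90% lower).

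For a view of 1 peak per gene, the peak centred within 1 kb of the start, or annotated as a promoter by the authors, was taken. This gave 27 synthetase promoters (17 cytosolic, 8 mitochondrial, and Gars and Kars, which serve both compartments) and 42 Eif promoters, out of 7638 such promoters in all. The 27 synthetase promoters had a median log2 fold change, CSE-KO over WT, of 0.0021, with 14 above and 13 below 0 (range -0.33 to 0.47). The 42 Eif promoters had a median of 0.07, with 26 above and 16 below 0 (range -0.55 to 0.99). Over all 7638 promoters the median was -0.02 and 53.0% lay below 0. All 27 synthetase promoters and 39 of the 42 Eif promoters lay within 0.5 of 0, where the median SE of a promoter peak of these genes was 0.22.

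edgeR called none of the 69 promoters, against 0.0262% of all promoters. At an unadjusted p under 0.05 there were 0 of 27 synthetase and 5 of 42 Eif promoters, that is 5 of 69 (2 higher, 3 lower; 7.25%), against 5.49% of all promoters (2.15% higher, 3.34% lower). The groups did not overlap at 5 of 69 promoters (2 higher, 3 lower), against 11.8% of all promoters (5.04% higher, 6.76% lower).

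**Figure D2:**
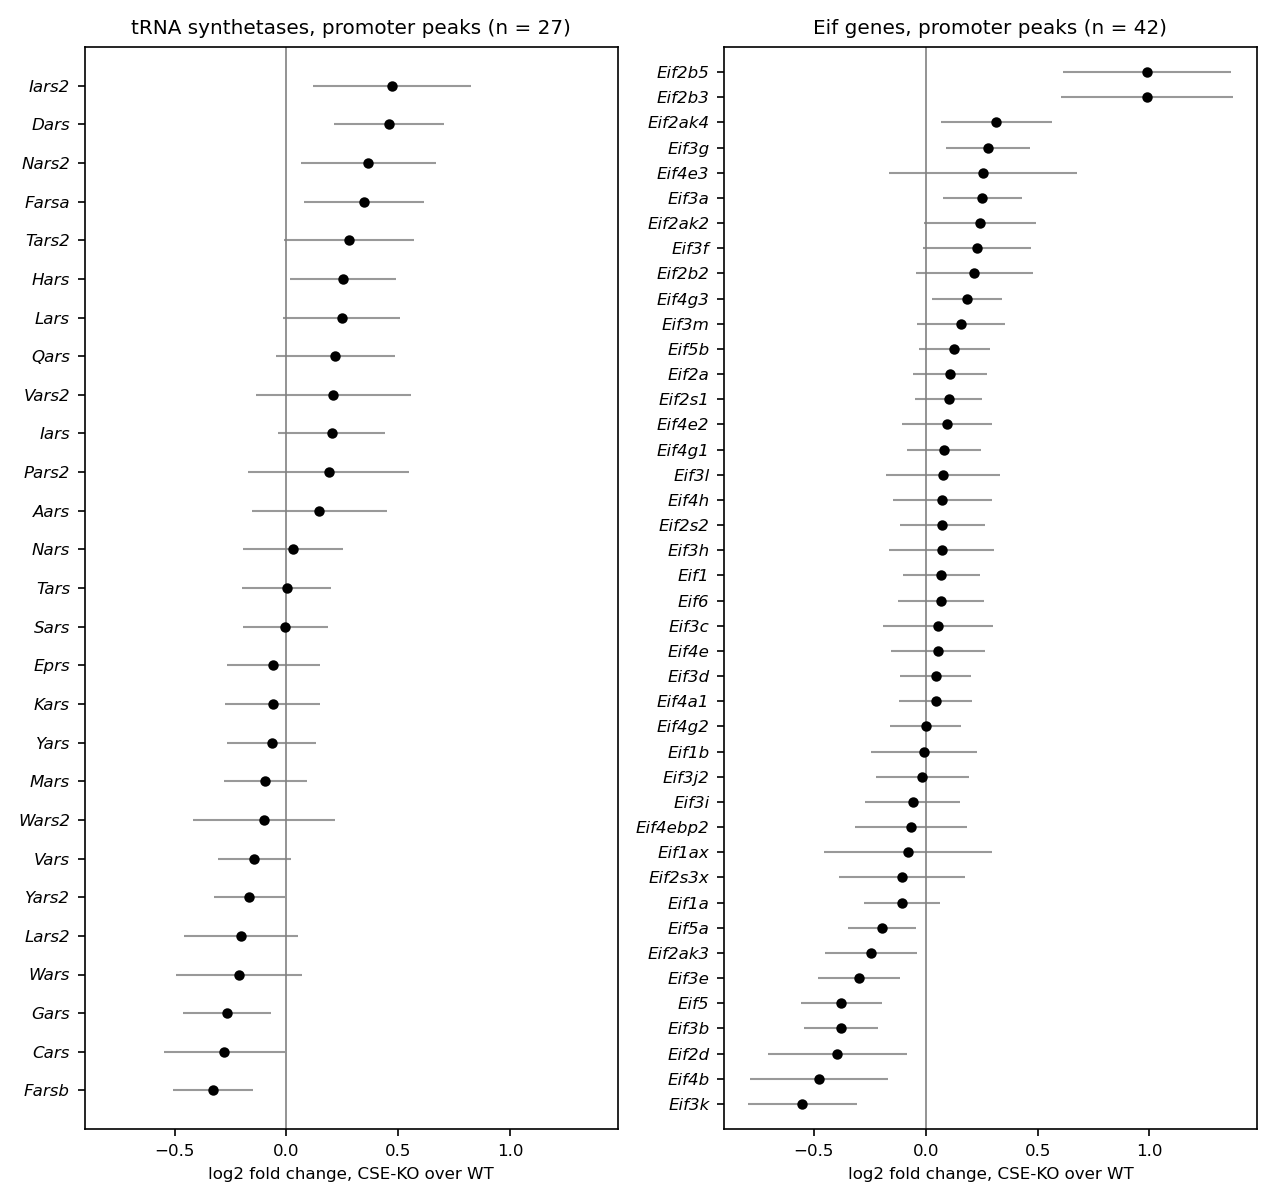
Log2 fold change of H3K9ac, CSE-KO over WT (x axis), at the promoter peak of each of 27 synthetase genes and 42 Eif genes (y axis), with bars of 1 SE from the edgeR fit on 3 libraries per group. The synthetases lie between -0.33 and 0.47, and Eif2b3 and Eif2b5 stand at 0.99.

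The sum of the 27 synthetase promoters took 0.224%, 0.239% and 0.228% of the counts across the WT libraries (replicates 1, 2 and 3, the order used throughout) and 0.234%, 0.237% and 0.217% across the CSE-KO libraries. The 42 Eif promoters took 0.459%, 0.453% and 0.451% in WT and 0.473%, 0.449% and 0.472% in CSE-KO. In both sets the CSE-KO libraries lay on either side of WT libraries, so that the groups overlapped.

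Cars, the cytosolic enzyme that charges tRNA with cysteine, was the gene closest to the amino acid that CSE makes. Its peak lies in intron 1 (chr7:143599333-143600004) and had 57.5, 75.9 and 75.6 CPM in WT and 67.4, 62.7 and 37.0 CPM in CSE-KO. The groups overlapped, and the lowest value was that of CSE-KO replicate 3. The means were 69.7 ± 10.5 and 55.7 ± 16.4 CPM (SD, n = 3 each), and the fitted log2 fold change was -0.28 (SE 0.27, edgeR adjusted p = 0.87). It was -0.08 when CSE-KO replicate 3 was left out and -0.46 when CSE-KO replicate 1 was. For Cars2, the mitochondrial cysteine enzyme, the table lists 1 peak, in intron 6 (chr8:11531348-11531651) and 19272 bp from the start. It held 2, 7 and 3 counts in WT and 9, 7 and 6 in CSE-KO and did not pass the filter.

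Among the other cytosolic enzymes, Dars, for aspartate, and Farsb, the beta subunit of the phenylalanine enzyme, had the largest promoter differences in either direction. The Dars promoter had 59.0, 72.6 and 58.8 CPM in WT and 72.6, 104 and 82.8 CPM in CSE-KO. The highest WT library met the lowest CSE-KO library there, and the log2 fold change was 0.46 (SE 0.25, edgeR adjusted p = 0.74). Farsb had 170, 122 and 217 CPM in WT and 146, 121 and 148 CPM in CSE-KO. These groups overlapped widely, and the fitted value of -0.33 (SE 0.18, edgeR adjusted p = 0.74) was -0.12 without WT replicate 3. Farsa, the alpha subunit of the same enzyme, had a fitted value of 0.35 (SE 0.27), opposite in sign to Farsb. It was 0.14 without WT replicate 1, 0.20 without WT replicate 3 and 0.68 without WT replicate 2. The cytosolic enzyme is built from both subunits, and neither peak passed the test.

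The promoters with an amino acid response core had fitted log2 fold changes of 0.15 (SE 0.30) at Aars, 0.20 (SE 0.24) at Iars, 0.00 (SE 0.20) at Tars, -0.07 (SE 0.20) at Yars and -0.27 (SE 0.20) at Gars. Eif2s3x was at -0.10 (SE 0.28). Aars had 39.4, 62.7 and 45.4 CPM in WT and 68.3, 50.7 and 34.0 CPM in CSE-KO, so that the highest and the lowest of the 6 values were both in CSE-KO. The groups overlapped at all 6 of these promoters. The Gars peak begins after the RefSeq start, so that the core of Gars lies outside it.

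The 8 mitochondrial synthetase promoters had a median log2 fold change of 0.20 (5 above and 3 below 0), beside 0.0021 for the 17 cytosolic ones (9 above, 8 below). Their summed share of the counts was 0.0490%, 0.0440% and 0.0476% in WT and 0.0490%, 0.0491% and 0.0483% in CSE-KO. WT replicate 1 lay within the CSE-KO range, so the groups overlapped. Iars2, the mitochondrial isoleucine enzyme, had 22.7, 29.7 and 30.2 CPM in WT and 36.3, 31.3 and 45.8 CPM in CSE-KO. Every CSE-KO library lay above every WT library there, and Iars2 was the only synthetase promoter whose groups did not overlap (log2 fold change 0.47, SE 0.35, edgeR adjusted p = 0.82). Nars2 was at 0.37 (SE 0.30), Tars2 at 0.28 (SE 0.29) and Vars2 at 0.21 (SE 0.35). Single WT libraries moved these: without WT replicate 1 Nars2 was at 0.16, without WT replicate 2 Tars2 was at 0.01, and without WT replicate 3 Tars2 was at 0.65 and Vars2 at 0.10. Pars2 was at 0.19 (SE 0.36), Wars2 at -0.10 (SE 0.32), Yars2 at -0.17 (SE 0.16) and Lars2 at -0.20 (SE 0.25).

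The 1 synthetase peak with an unadjusted p under 0.05 was listed under Rars, the arginine enzyme, but lies at -3918 bp from its start, within Wwc1, at whose transcript end the authors annotated it (chr11:35837847-35839046). It had 112, 99.0 and 97.4 CPM in WT and 83.8, 56.7 and 65.1 CPM in CSE-KO. All CSE-KO values lay below all WT values, and the fitted log2 value was -0.56 (SE 0.22, edgeR adjusted p = 0.64). The large peak over exon 2 of Rars itself, centred 1282 bp into the gene and thus outside the 1-kb set, had 238, 241 and 264 CPM in WT and 188, 263 and 201 CPM in CSE-KO. Its groups overlapped (log2 fold change -0.20, SE 0.15, edgeR adjusted p = 0.82).

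**Figure D3:**
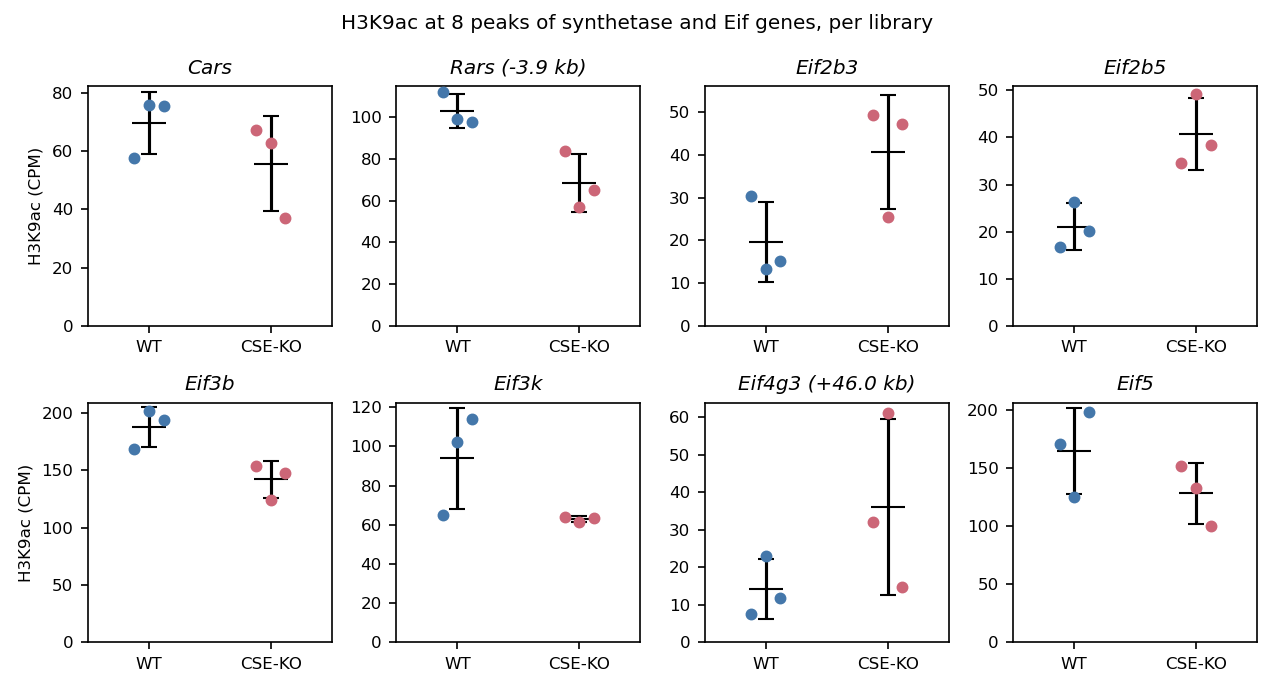
H3K9ac in CPM (y axis, from 0, a scale of its own per panel) at 8 peaks in each of 3 WT and 3 CSE-KO libraries (points), with the mean and SD (bars). CSE-KO lies above WT without overlap at Eif2b5 (34.6 to 49.3 against 16.7 to 26.4 CPM) and below it at Eif3b, Eif3k and the upstream Rars peak, while the groups overlap at Cars, Eif2b3, Eif5 and the intronic Eif4g3 peak.

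The subunits of eIF2B, the guanine nucleotide exchange factor of eIF2, held the 2 largest promoter differences of all synthetase and Eif genes. Eif2b5, the catalytic epsilon subunit, has its peak in intron 1 (chr16:20499085-20499773). It had 16.7, 26.4 and 20.2 CPM in WT (11, 8 and 12 counts) and 34.6, 49.3 and 38.4 CPM in CSE-KO (40, 33 and 26 counts). Every CSE-KO library lay above every WT library. The means were 21.1 ± 4.93 and 40.8 ± 7.61 CPM (SD, n = 3 each), and the fitted log2 fold change was 0.99 (SE 0.38). It did not pass over all peaks (edgeR adjusted p = 0.60). The peak was among the 7 with an unadjusted p under 0.05, as were Eif2b3, Eif3b, Eif3k, Eif5, 1 Eif4g3 and 1 Rars peak.

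Eif2b3, the gamma subunit, has its peak in intron 1 as well, over a short interspersed repeat of the MIR family (chr4:117019383-117020090). It had 30.3, 13.2 and 15.1 CPM in WT and 49.2, 25.4 and 47.3 CPM in CSE-KO. WT replicate 1 lay above CSE-KO replicate 2, so the groups overlapped, and the log2 fold change was 0.99 (SE 0.38, edgeR adjusted p = 0.61), or 1.51 without WT replicate 1. Eif2b2, the beta subunit, had 69.6, 49.5 and 48.7 CPM in WT and 69.1, 62.7 and 66.5 CPM in CSE-KO, with a log2 fold change of 0.22 (SE 0.26). Its groups overlapped through WT replicate 1, without which the value was 0.44, and it was 0.10 without WT replicate 3.

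The other 2 subunits carry other names in the table. The start of Eif2b1 (alpha) lies in a peak named for Gtf2h3, with means of 88.5 ± 11.4 (WT) and 88.0 ± 13.0 CPM (CSE-KO; SD, n = 3 each; log2 fold change -0.01, SE 0.22). That of Eif2b4 (delta) lies in a peak named for Snx17, with 131 ± 15.6 and 133 ± 20.5 CPM (0.03, SE 0.19). The 5 subunit genes thus had fitted values from -0.01 to 0.99, and no value passed the test. Eif2b3 and Eif2b5 had the lowest levels per length of all Eif promoters in WT, 27.6 ± 13.2 and 30.6 ± 7.16 CPM per kb of peak, where few counts widen the SE.

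The sequence before the start of Eif2b5 is shown because its peak separated the groups (RefSeq, GRCm38.p6, chr16:20498567-20498816, plus strand, NFY box in capitals). It ends before the peak begins.
Eif2b5: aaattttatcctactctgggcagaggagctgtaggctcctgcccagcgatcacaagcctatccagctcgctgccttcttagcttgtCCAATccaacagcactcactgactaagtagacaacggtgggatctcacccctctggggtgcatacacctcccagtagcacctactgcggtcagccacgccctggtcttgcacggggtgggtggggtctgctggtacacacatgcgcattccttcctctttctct
No other motif of the search is written in it.

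The other genes around eIF2 had smaller differences. Eif2s1, the alpha subunit whose serine the stress kinases phosphorylate, had 188, 238 and 210 CPM in WT and 221, 227 and 225 CPM in CSE-KO (log2 fold change 0.10, SE 0.15). The CSE-KO values lay inside the WT range. Eif2s2, the beta subunit, was at 0.07 (SE 0.19) and Eif2s3x at -0.10 (SE 0.28). Eif2a and Eif2d, which can deliver initiator tRNA without eIF2, were at 0.11 (SE 0.17) and -0.40 (SE 0.31). The Eif2d value lay between -0.15 (without WT replicate 2) and -0.86 (without CSE-KO replicate 1) with single libraries left out.

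Of the eIF2 kinases, Eif2ak4, the gene of GCN2, had 71.2, 69.3 and 55.4 CPM in WT and 82.9, 61.2 and 97.6 CPM in CSE-KO. The groups overlapped (log2 fold change 0.31, SE 0.25, edgeR adjusted p = 0.84), and the value was 0.17 without CSE-KO replicate 3 and 0.19 without WT replicate 3. Eif2ak3, the gene of PERK, the kinase of the endoplasmic reticulum, had 118, 102 and 101 CPM in WT and 89.0, 98.5 and 85.8 CPM in CSE-KO. Its CSE-KO values all lay below the WT values, by little in the nearest pair (log2 fold change -0.25, SE 0.21, edgeR adjusted p = 0.85), and the value was -0.16 without WT replicate 1. A second peak listed under Eif2ak3 at -19886 bp had means of 38.8 ± 5.71 (WT) and 26.8 ± 3.88 CPM (CSE-KO; SD, n = 3 each), again without overlap (log2 fold change -0.53, SE 0.35, edgeR adjusted p = 0.79). Eif2ak2, the gene of PKR, which senses double-stranded RNA, was at 0.24 (SE 0.25), or 0.08 without CSE-KO replicate 2 and 0.14 without WT replicate 2. Eif2ak1, the gene of the heme-regulated kinase HRI, was at 0.17 (SE 0.23). The authors list its peak at -53844 bp, but the RefSeq start of Eif2ak1 lies inside it.

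The 13 eIF3 promoters had a median log2 fold change of 0.05, 8 above and 5 below 0, and included 2 of the 3 Eif promoters that were lower at an unadjusted p under 0.05. Eif3b, the scaffold subunit that joins the mRNA channel to the core of eIF3, has its peak over exon 1 (chr5:140418491-140420619). It had 168, 201 and 193 CPM in WT and 154, 124 and 148 CPM in CSE-KO, all below the WT values (log2 fold change -0.38, SE 0.17, edgeR adjusted p = 0.65). Eif3k, an accessory subunit at the edge of eIF3, has its peak over the start (chr7:28981065-28982253), which also holds the start of Map4k1. It had 65.1, 102 and 114 CPM in WT and 63.9, 61.2 and 63.6 CPM in CSE-KO. WT replicate 1 lay just above the CSE-KO values and the other 2 WT libraries well above them (log2 fold change -0.55, SE 0.24, edgeR adjusted p = 0.66), and the value was -0.34 without WT replicate 3. Eif3e was at -0.30 (SE 0.18), Eif3g at 0.28 (SE 0.19) and Eif3a, the largest subunit, at 0.25 (SE 0.18). Without WT replicate 3 Eif3g was at 0.17 and Eif3a at 0.14. The peak named for Eif3j2 lies over Eif3j1 in RefSeq and was at -0.02 (SE 0.21).

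The sequences before the starts of Eif3b and Eif3k lie within their peaks and are shown for their contrast in motif content (RefSeq, GRCm38.p6, chr5:140419055-140419304, plus strand, and chr7:28981889-28982138, minus strand). Capitals mark a TATA box in Eif3b, and an NFY box read in reverse, the NRF1 site and an E-box in Eif3k.
Eif3b: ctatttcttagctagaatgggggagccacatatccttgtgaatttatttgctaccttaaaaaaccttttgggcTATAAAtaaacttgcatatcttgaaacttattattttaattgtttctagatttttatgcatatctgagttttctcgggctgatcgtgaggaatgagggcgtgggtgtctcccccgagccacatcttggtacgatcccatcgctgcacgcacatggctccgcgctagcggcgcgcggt
Eif3k: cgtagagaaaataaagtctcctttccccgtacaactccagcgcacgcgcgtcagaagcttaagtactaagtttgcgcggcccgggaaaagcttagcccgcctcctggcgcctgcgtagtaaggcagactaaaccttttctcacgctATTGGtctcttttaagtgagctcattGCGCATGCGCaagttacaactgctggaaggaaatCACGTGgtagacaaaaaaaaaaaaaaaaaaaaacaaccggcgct
Neither window holds the amino acid response core.

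The cap-binding and scanning group, eIF4, had 7 of its 9 promoters above 0 (median log2 fold change 0.07), and edgeR called none of them. Eif4e, the cap-binding protein, had 103, 99.0 and 90.7 CPM in WT and 87.3, 95.5 and 124 CPM in CSE-KO (log2 fold change 0.05, SE 0.21). The CSE-KO libraries held both the highest and the lowest of these values. Eif4g1, the scaffold between cap and ribosome, was at 0.08 (SE 0.17) and Eif4a1, its RNA helicase, at 0.04 (SE 0.16). Eif4b, which stimulates the helicase, was at -0.48 (SE 0.31, edgeR adjusted p = 0.78). Eif4ebp2, a binding protein that holds eIF4E inactive, was at -0.07 (SE 0.25).

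The largest fitted difference of any synthetase or Eif peak was an intronic one of Eif4g3, a paralog of Eif4g1, 46020 bp into the gene (chr4:138043499-138044192). It had 7.57, 23.1 and 11.8 CPM in WT (5, 7 and 7 counts) and 32.0, 61.2 and 14.8 CPM in CSE-KO (37, 41 and 10 counts). CSE-KO replicate 3 lay within the WT range, so the groups overlapped. Its fitted value of 1.49 on the log2 scale (SE 0.48, edgeR adjusted p = 0.45) was 0.93 without CSE-KO replicate 2. At the Eif4g3 promoter the value was 0.19 (SE 0.16).

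Late and other factors followed. Eif5, which triggers GTP hydrolysis on eIF2 when the start codon is found, had 171, 125 and 198 CPM in WT and 152, 133 and 101 CPM in CSE-KO. The groups overlapped (log2 fold change -0.38, SE 0.18, edgeR adjusted p = 0.69), and the value was -0.24 without WT replicate 3 or without CSE-KO replicate 3. Eif5b, which joins the large subunit, was at 0.13 (SE 0.16) and Eif6, which keeps the subunits apart, at 0.07 (SE 0.19). Eif5a, which acts mainly in elongation, was at -0.19 (SE 0.15). Of the genes that aid start codon choice, Eif1 was at 0.07 (SE 0.17), Eif1a at -0.11 (SE 0.17), Eif1ax at -0.08 (SE 0.38) and Eif1b at -0.01 (SE 0.24). Leaving out the kinases, the eIF4E-binding protein and Eif5a, the 37 remaining Eif promoters had a median of 0.07, 24 above and 13 below 0.

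The 25 tested peaks outside the promoter set had a median log2 fold change of -0.20, with 11 above and 14 below 0. The groups did not overlap at 4 of the 25 (16%), against 13.0% of all tested peaks (6.09% higher, 6.90% lower). All 4 were lower in CSE-KO: the upstream Rars and Eif2ak3 peaks, a peak 34922 bp from Eif2s3x (-0.44, SE 0.26) and one at -5218 bp from Eif4h (-0.54, SE 0.37). Without WT replicate 2 the last 2 values were -0.24 and -0.28. None passed the edgeR test. By the deposited distances, 20 of all 99 peaks were listed more than 10 kb from the start of the gene they were assigned to, among them the Eif2ak1 peak that holds the RefSeq start of its gene. In RefSeq, 17 of the 99 did not overlap the gene they were named for.

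Levels were compared between genes in CPM per kb of peak, which takes out the width of the peaks. In WT the median was 70.2 at synthetase promoters and 78.5 at Eif promoters, beside 61.7 at all promoters. In CSE-KO these medians were 75.0, 76.9 and 60.9. Of 27 synthetase promoters 20, and of 42 Eif promoters 32, lay above the median of all promoters in WT. Above the upper quartile of 78.4 lay 9 synthetase and 21 Eif promoters. Mitochondrial synthetases were at a median of 49.1 and cytosolic ones at 72.5. Peak width had a median of 1051 bp at synthetase, 1341 bp at Eif and 1095 bp at all promoters.

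Among synthetases the order in WT began with Yars2, the mitochondrial tyrosine enzyme, at 120 ± 11.1 CPM per kb, Mars, for methionine, at 112 ± 32.7 and Cars at 104 ± 15.6 (SD, n = 3 each). These 3 did not differ beyond their spread. It ended with Vars2 at 41.8 ± 5.53, Pars2 at 38.9 ± 14.2 and Iars2 at 38.3 ± 5.83, all mitochondrial and likewise within their spread. Per kb of peak, Cars thus had rank 3 of the 27 in WT, and 82.9 ± 24.4 CPM per kb in CSE-KO. Its peak was 672 bp wide, against the synthetase median of 1051 bp. Not divided by width, Cars had 57.5, 75.9 and 75.6 CPM in WT, beside synthetase promoter medians of 69.6, 75.9 and 73.9 CPM. Among Eif genes the order began with Eif3e at 141 ± 21.3, Eif5 at 117 ± 26.0 and Eif2s2 at 112 ± 1.31, and ended with Eif4e3 at 33.1 ± 14.6 and the eIF2B genes Eif2b5 and Eif2b3.

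**Figure D4:**
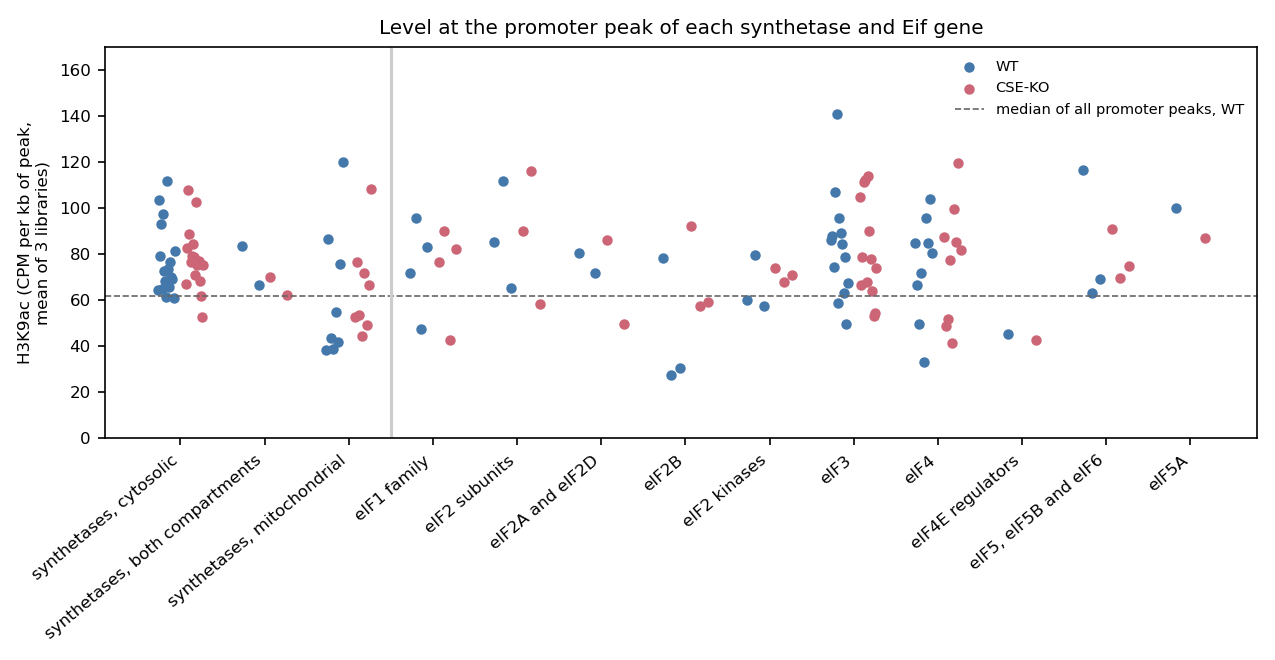
H3K9ac level in CPM per kb of peak (y axis, mean of 3 libraries) at the promoter peak of each synthetase and Eif gene, by role (x axis), in WT and CSE-KO, with the WT median of all promoters (61.7) as a dashed line. Mitochondrial synthetases spread to both sides of the line, and Eif2b3 and Eif2b5 lie at the bottom in WT (27.6 and 30.6) and near the line in CSE-KO (57.4 and 59.1).

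Of the 69 promoter peaks, 11 (15.9%) held the RefSeq start of another gene, as did 15% of all promoter peaks, so the share was close to the background. Such peaks include those of Kars with Terf2ip, Yars with S100pbp, Eif2s1 with Atp6v1d, Eif5b with Txndc9 and Eif3i with Tmem234, and their counts cannot be divided between the genes. RefSeq holds 92 genes that fit the naming rule, of which 17 had no listed peak under their own symbol, which does not show that the mark was absent. Some of their starts lay in peaks under a neighbour's name, such as Ears2 in a Ubfd1 peak (-0.04, SE 0.17), Rars2 in an Orc3 peak (0.18, SE 0.18) and Sars2 in an Mrps12 peak (-0.09, SE 0.25).

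Other genes of translation were read from the same fit. Of 70 listed gene symbols, some of them alternative names of the same gene, 53 had a peak, and 65 of their 68 peaks were tested. edgeR called none, with 2 of 46 promoters at an unadjusted p under 0.05 (4.35%), against 5.49% of all promoters. The groups did not overlap at 7 of the 46 (3 higher, 4 lower; 15.2%), against 11.8% of all promoters (5.04% higher, 6.76% lower). The median log2 fold change of the 46 promoters was -0.08, with 19 above and 27 below 0. By group it was -0.13 at 12 genes of the synthetase complex and tRNA loading, -0.07 at 16 of elongation, termination and recycling, -0.09 at 14 initiation helpers and 0.16 at 4 genes of the integrated stress response. Of the 11 symbols listed for the stress response, 6 had a peak, and Atf4 had none under its symbol. Ppp1r15a (-0.14, SE 0.15) and Ppp1r15b (0.08, SE 0.13) had peaks centred beyond 1 kb and were not among the 4. The group of 16 also included the mitochondrial initiation factors Mtif2 (0.17, SE 0.23) and Mtif3 (-0.03, SE 0.45). Eef1a1, which brings charged tRNA to the ribosome, had means of 280 ± 38.6 (WT) and 226 ± 11.6 CPM (CSE-KO; SD, n = 3 each) without overlap (log2 fold change -0.33, SE 0.14, edgeR adjusted p = 0.64). Aimp2, a scaffold of the multi-synthetase complex, had 114 ± 12.8 and 87.2 ± 5.70 CPM, also without overlap (-0.40, SE 0.20, edgeR adjusted p = 0.72). Pelo, a ribosome rescue factor, was at -0.58 (SE 0.29) and Eef1g, an elongation factor subunit, at -0.26 (SE 0.14), both without overlap. The 3 promoters that were higher without overlap were Dtd1, a deacylase of mischarged tRNA, at 0.65 (SE 0.36), Gatc, a subunit of the mitochondrial glutamyl-tRNA amidotransferase, at 0.28 (SE 0.35) and Eif4ebp1, which holds eIF4E inactive, at 0.26 (SE 0.20). These 7 genes were named after their values were seen. An intronic peak 82764 bp into Rptor, the mTORC1 subunit raptor, was picked as the one with the smallest adjusted p of the 65 tested peaks. Its means were 17.5 ± 4.72 (WT) and 52.8 ± 12.7 CPM (CSE-KO; SD, n = 3 each), without overlap (log2 fold change 1.55, SE 0.36, edgeR adjusted p = 0.084). The Rptor promoter was at -0.14 (SE 0.21, edgeR adjusted p = 0.92). Another intronic Rptor peak, at 74003 bp, was at 0.06 (SE 0.39, edgeR adjusted p = 0.99). The groups overlapped at both.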

How the data were processed

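The authors' deposited table gives raw counts per peak for 6 libraries, with peak position, nearest gene and annotation. DESeq2 1.36.0, featureCounts, Picard 3.1.1, STAR 2.7.11a and Trimmomatic 0.39 are listed in the submitters' processing notes, without role or order. No source used here gives the peak caller. The notes name build mm39, but for 76 of 99 peaks the start implied by the deposited distance fell within 100 bp of a gene end on GRCm38.p6 in RefSeq, so coordinates are printed as deposited and read on GRCm38.p6. Another 12 columns of per-sample values were not used.

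The main test on these counts used edgeR 4.0.16 under R 4.3.3 (alternatives: limma 3.58.1, DESeq2 1.42.0): filterByExpr with a minimum count of 10 (1767 of 17901 peaks removed, 5 of them of the genes described), TMM scaling, two-sided quasi-likelihood test of CSE-KO against WT on all 6 libraries, and Benjamini-Hochberg adjustment over 16134 peaks with a threshold of 0.05. CPM values use TMM-scaled library sizes over the peaks kept by the filter. The scripts were tested on simulated data. Replicates differed by more than counting noise (chi-square over degrees of freedom, 1.87 to 2.15) and each counted as 1 sample.

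Genes and lists were chosen with earlier results of these data known. Named peaks are the cysteine enzymes, in each class up to 4 peaks with the largest difference in each direction among those of at least median abundance, peaks with an unadjusted p under 0.05, the 3 highest and 3 lowest promoters per kb, genes with more than 1 peak, and the eIF2 kinases. Other genes are given by role. Alternatives were other scalings, tests and count filters, wider promoter sets, a replicate block, and each library left out. The promoter sequence of 1 gene is not reported here.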

Additional observations from a re-analysis of the deposited data

How the results depend on the processing

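No synthetase, Eif or other translation peak was called under any of the scalings, tests, filters, the replicate block or the single libraries left out. For the named peaks refitted, 685 of 732 values kept their direction and side of the threshold, 47 at 20 peaks changed sign, and the smallest adjusted p was 0.37. The count of called peaks over the whole table, 14, was 7 with DESeq2, 8 with a mean count of 50 or more, 15 with the replicate block, and 6 to 13 with single libraries left out (6 without CSE-KO replicate 1, 7 without WT replicate 3, 8 without CSE-KO replicate 3). Same-numbered libraries deviated together only weakly (r = 0.06, 0.01 and 0.0089 over peaks, other pairs -0.03 to 0.02). The labels do not say whether they are pairs, and these values cannot decide it. In the replicate block the medians were -0.01 for synthetase and 0.07 for Eif promoters. The unadjusted count of 7 peaks of these genes fell to 2 of 94 without CSE-KO replicate 2, against 6.87% of all tested peaks. Its highest value was 8 of 94 without WT replicate 2, against 7.51% of all. Without WT replicate 3 it was 3 of 95, against 7.07%.

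The median of synthetase promoters, 0.0021, was 0.064 with quantile-normalized voom, where 37% lay below 0 against 48.1%, and -0.040 to 0.065 with single libraries left out. That of Eif promoters, 0.07, was 0.04 to 0.09 in the latter. Near 0 the sign of single peaks turned. With voom, Dars at -23760 bp was -0.029, Eif2s3x at 42902 bp -0.033, the Eif3i promoter 0.041, Lars2 at -8384 bp -0.15 and the Sars promoter 0.029. With library size alone the Sars promoter was 0.016 and Eif2b2 at -15439 bp 0.0057. The Sars promoter was 0.026 with a mean count of 50 or more. The Tars promoter was -0.011 with DESeq2, -0.0038 with no filter and -0.025 with the replicate block, in which Eif2b2 at -15439 bp was 0.010. The cause was not tested.

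With single libraries left out, promoters whose sign turned had ranges of -0.049 to 0.13 (Eif2s2), -0.27 to 0.086 (Eif2s3x), -0.24 to 0.11 (Eif3i), -0.12 to 0.15 (Eif4h), -0.13 to 0.057 (Eprs), -0.42 to 0.035 (Gars), -0.054 to 0.56 (Iars), -0.33 to 0.051 (Mars), -0.061 to 0.58 (Pars2), -0.059 to 0.073 (Sars) and -0.16 to 0.14 (Tars). Other peaks had -0.055 to 0.31 (Dars at -23760 bp), -0.29 to 0.15 (Eif2b2 at -15439 bp), -0.053 to 0.77 (Eif2s2 at 37617 bp), -0.035 to 0.10 (Eif2s3x at 42902 bp), -0.25 to 0.32 (Lars2 at -8384 bp), -0.52 to 0.15 (Nars2 at 19972 bp), -0.043 to 0.50 (Nars2 at 32680 bp), -0.096 to 0.58 (Sars at 9142 bp) and -0.19 to 0.27 (Wars at 7231 bp).

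A median of 62 counts per promoter peak and an SE of 0.22 limit what could be seen at single promoters.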
